A study of Bos taurus with 11 samples.

Results

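The genes examined here carry the insulin-like growth factor (IGF), insulin and growth hormone signals into endometrial cells. They are the ligands IGF1 and IGF2, the receptors IGF1R, IGF2R, INSR and GHR, and the proteins IRS1, IRS2 and GRB10 that bind the activated receptors inside the cell. They were chosen by name, with earlier results of these data known. A probe set was taken where the platform annotation gave it exactly 1 of these symbols. Of the 9 genes 7 were measured, by 29 of the 24016 probe sets, where the whole table represents 9155 genes. IRS1 and IRS2 had no such probe set and were not analysed here, and 2 probe sets that the annotation gives to both GHR and FBXO4 were left out. Each gene is represented by its brightest probe set, the one with the highest mean over all arrays, and its other probe sets are given beside it.

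The samples were uterine endometrium, the lining of the womb, from 11 multiparous Holstein-Friesian cows slaughtered 14 ± 0.4 days after calving, 1 Affymetrix bovine array per cow. In negative energy balance a lactating cow spends more energy than it eats. From day 2 after calving the mild group (n = 5) had grass silage without limit, 8 kg of concentrate a day and 1 milking a day, and the severe group (n = 6) had 25 kg of silage, 4 kg of concentrate and 3 milkings a day. Silage and concentrate were of the same make-up in both groups. Parity averaged 4.7 and the yield of the lactation before 6477 ± 354 kg, with errors as the labels give them. Per the labels the cows were put into blocks 2 weeks before the calving date expected, by parity, body condition and earlier yield, before groups were drawn at random. Which cows shared a block is not given in the sources used here, so no test below takes the blocks into account. The regime changed feed and milking together, so their parts cannot be told apart. Cows are called mild 1 to 5 and severe 1 to 6 in the order of the samples.

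Growth hormone from the pituitary acts through GHR, a receptor that signals through the kinase JAK2 and STAT5 and switches on IGF1, above all in the liver. IGF1 and IGF2 then act on IGF1R, a tyrosine kinase receptor closely related to the insulin receptor INSR, and both pass the signal through IRS proteins to PI3K and AKT and through adaptors to the MAP kinases. IGF2R has no kinase and carries IGF2 and lysosomal enzymes to the lysosome, and GRB10 dampens signalling from INSR and IGF1R. In early lactation the liver of dairy cows makes less GHR and less IGF1, and the IGFs that endometrial stroma makes itself act locally on the repair of the uterus after calving.

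Values are RMA signals on the log2 scale, so a difference of 1 is a factor of 2, and the brightness of different probe sets is not compared. A probe set is called dim where its mean over the 11 cows is among the lowest 40% of the table, under 5.52, a range in which array signals understate differences. Array medians were all 6.20, and correlations between arrays ran from 0.948 to 0.991. Stromal fibroblast markers had a mean signal of 10.93 to 11.57 in mild and 11.17 to 11.50 in severe cows, with 10 of 10 measured markers not dim. Of these markers 5 were higher and 5 lower in severe cows, with PDGFRA at 0.97 and HOXA10 at -0.71. Their mean can therefore hide changes of single markers. Epithelial markers ran from 7.65 to 8.50 and from 7.02 to 8.41, with KRT8 dim among 12. Both main cell types of endometrium were therefore present, and smooth muscle markers were bright as well (11.78 to 13.00 and 11.47 to 12.79). Neutrophil markers, all 6 measured ones higher in severe cows and only TREM1 dim, ran from 5.31 to 6.74 in mild and from 7.32 to 10.10 in severe cows, so the ranges did not meet. The part of these cells in the differences below was examined only by a fit with the neutrophil score. In whole tissue, fewer cells of a type and less RNA per cell cannot be told apart. RNA quality, read as the 3' minus 5' signal averaged over 6 control transcripts, averaged 0.56 ± 0.07 (SD) over the mild and 0.59 ± 0.14 (SD) over the severe group. By cow it ran from 0.42 in severe 4 to 0.82 in severe 2. Severe 2 was also the cow with the lowest signal on the brightest probe sets of GHR, IGF1 and IGF2. The part of RNA quality in the differences below was not tested.

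The comparison asks how the endometrium of severe cows differs from that of mild cows. Among the 7 genes the signal of GHR was lower in severe cows by 0.70 log2 units and that of IGF1R higher by 0.21, while IGF1 and IGF2 were lower by 0.27 and 0.45 with intervals that include 0. None of the 29 probe sets passed the test across the whole table (limma with Benjamini-Hochberg adjustment over 24016 probe sets, threshold 0.05), where 0.0% of all probe sets passed, and the smallest adjusted p among them was 0.307. At an unadjusted p under 0.05 there were 4 of 29 (13.8%), 2 lower and 2 higher in severe cows. The background over all probe sets was 12.8%, made up of 5.88% lower and 6.97% higher, so as a group these genes were near the share of the whole array. In 0 of 29 the values of the groups were free of overlap, against 1.07% of all probe sets. The median difference of the 7 brightest probe sets was 0.07, and that of all genes was -0.00378. Lower in severe cows were 3 of the 7 genes, beside 51.1% of all genes.

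**Figure D1:**
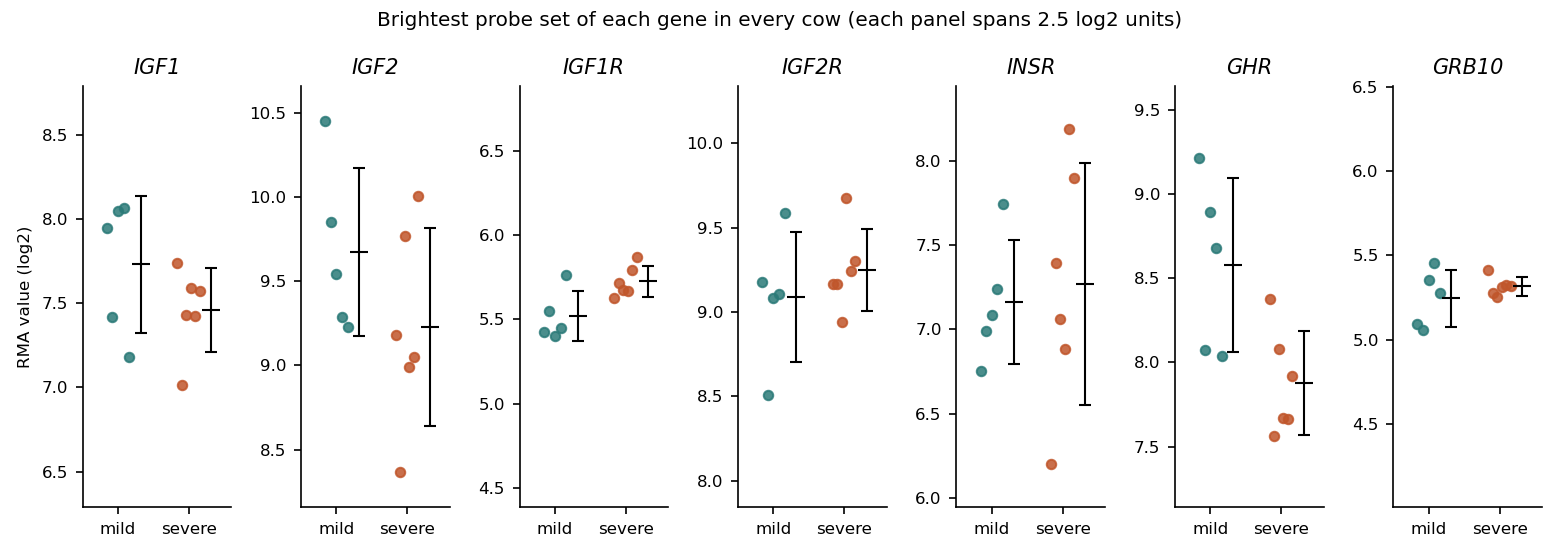
RMA signal (log2) of the brightest probe set of each of the 7 measured genes, 1 point per cow, with the mean and SD of each group (mild n = 5, severe n = 6) beside the points; every panel spans the same height. GHR lies between 8.04 and 9.21 in mild and between 7.57 and 8.38 in severe cows, and IGF1R between 5.40 and 5.76 and between 5.63 and 5.87.

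GHR, the growth hormone receptor, had the smallest p of the 7 genes. Its signal was 9.21, 8.07, 8.90, 8.68 and 8.04 in mild 1 to 5 and 8.38, 7.57, 8.08, 7.67, 7.67 and 7.92 in severe 1 to 6. All 6 severe cows lay below the mean of the mild cows and 4 of them below the lowest mild cow, while mild 1, 3 and 4 stood above every severe cow and mild 2 and 5 lay among them. The means were 8.58 ± 0.52 (SD, n = 5) and 7.88 ± 0.31 (SD, n = 6), a 1.62-fold higher level in mild cows, with a 95% interval from 1.15-fold to 2.29-fold. The difference was -0.70 ± 0.23 (SE), with an unadjusted p of 0.00949 and a limma adjusted p of 0.307. A two-sided permutation test by exact enumeration of the 462 possible splits gave p = 0.0281. The unadjusted p stayed under 0.05 in 11 of 11 limma fits that each left out 1 cow (0.00325 to 0.0271), with differences from -0.84 to -0.54. With the neutrophil score as a covariate the difference was -0.62 ± 0.43 (SE), with an interval from -1.56 to 0.33. With the stromal score, a mean over 5 markers higher and 5 lower in severe cows, it was -0.77 ± 0.21.

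GHR had 10 further probe sets, and all of them were dim, with values from 2.96 to 4.70 over the 11 cows. Their differences ran from -0.17 to 0.15, 6 lower and 4 higher in severe cows, and the smallest unadjusted p among them was 0.0667. The mean over all 11 GHR probe sets therefore differed by only -0.08 ± 0.06 (SE, unadjusted p = 0.217). The statement on GHR rests on a single probe set, the 1 of 11 for which the annotation gives a RefSeq transcript.

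IGF1, the ligand that growth hormone induces, was 7.94, 7.42, 8.05, 8.06 and 7.18 in mild 1 to 5 on its brightest probe set. In severe 1 to 6 it was 7.74, 7.01, 7.43, 7.59, 7.42 and 7.57. The same 3 mild cows that were high in GHR, mild 1, 3 and 4, were above all severe cows, and mild 5 was lower than 5 of the 6 severe cows. The means were 7.73 ± 0.41 (SD, n = 5) and 7.46 ± 0.25 (SD, n = 6), a difference of -0.27 ± 0.18 (SE) with a 95% interval from -0.67 to 0.13 (unadjusted p = 0.165, exact permutation p = 0.212). These data leave room for anything from a 1.59-fold higher level in mild cows to a 1.09-fold higher level in severe cows. With 1 cow left out at a time the difference ran from -0.41 without mild 5 to -0.18 without severe 2 and the unadjusted limma p from 0.0293 to 0.348, under 0.05 in 1 of 11 fits, the one without mild 5. In the fit that includes the neutrophil score it was -0.62 ± 0.32 (SE).

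The second IGF1 probe set followed the first across cows with r = 0.935 (11 cows, same arrays). The annotation gives both the same sequence record, so they are not independent measurements. The second one differed by -0.25 ± 0.15 (SE), with 6 of 6 severe cows under the mild mean. The third one was dim on average and reached 5.93, 6.04 and 6.24 in mild 1, 3 and 4, against 4.68 and 4.02 in mild 2 and 5 and 3.56 to 5.10 in severe cows. It differed by -1.07 ± 0.43 (SE, unadjusted p = 0.0287, limma adjusted p = 0.347, exact permutation p = 0.0628), and since most cows lie near the floor of the array its size is not exact. The last one was dim in every cow and differed by 0.00811. The first 3 IGF1 probe sets were thus highest in the same mild cows, and the groups overlapped in each of them.

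IGF2, the growth factor of fetal and repairing tissue, was 10.45, 9.85, 9.54, 9.29 and 9.23 in mild 1 to 5. In severe 1 to 6 it was 9.18, 8.37, 9.77, 8.99, 9.05 and 10.002. Of the severe cows 4 lay below every mild cow, but severe 3 was higher than 3 and severe 6 higher than 4 of the mild cows. The means were 9.67 ± 0.50 (SD, n = 5) and 9.23 ± 0.59 (SD, n = 6), and the difference of -0.45 ± 0.30 (SE) had an interval from -1.09 to 0.20 (unadjusted p = 0.160, exact permutation p = 0.214). With 1 cow left out at a time it ran from -0.60 without severe 6 to -0.25 without mild 1, was -0.27 without severe 2, and had an unadjusted limma p under 0.05 in 0 of 11 fits (0.0559 to 0.397). A second bright probe set gave -0.44 ± 0.24 (SE) and also had 4 severe cows under the lowest mild cow. On it severe 6, at 9.25, lay above every mild cow, the highest of which was at 9.11. The 2 remaining probe sets were dim, at -0.12 and 0.00266. With all 4 probe sets averaged the difference was -0.25 ± 0.17 (SE). The mild cow with the most IGF2 was mild 1, which was also highest in GHR, but mild 4, high in GHR and IGF1, was not high in IGF2.

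IGF1R, the receptor through which both IGFs act on growth and survival, was 5.43, 5.55, 5.40, 5.45 and 5.76 in mild 1 to 5. In severe 1 to 6 it was 5.63, 5.71, 5.67, 5.67, 5.80 and 5.87. All 6 severe cows lay above the mild mean, and mild 5 was the only mild cow inside the severe range. The means were 5.52 ± 0.15 (SD, n = 5) and 5.73 ± 0.09 (SD, n = 6), a 1.15-fold higher level in severe cows, with an interval from 1.02-fold to 1.30-fold. The difference of 0.21 ± 0.08 (SE) had an unadjusted p of 0.0244, a limma adjusted p of 0.339 and an exact permutation p of 0.0303. The signal was just above the dim limit, passing it in 8 of 11 cows, so the size may be compressed. The other IGF1R probe set was dim and differed by 0.20 ± 0.11 (SE). Leaving out 1 cow at a time kept the unadjusted p under 0.05 in 7 of 11 limma fits, the range being 0.00303 to 0.0649, and differences ran from 0.18 to 0.27. With the neutrophil score as a covariate the difference was 0.20 ± 0.15 (SE), with an interval from -0.13 to 0.54 and an unadjusted limma p of 0.208.

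INSR, the insulin receptor, was 6.75, 6.99, 7.09, 7.24 and 7.75 in mild 1 to 5 and 6.20, 7.39, 7.06, 6.88, 8.19 and 7.90 in severe 1 to 6. The severe cows spread over nearly 2 log2 units, holding both the lowest and the highest cow, and enclosed all of the mild cows. The difference was 0.11 ± 0.32 (SE), with an interval from -0.59 to 0.80, and it turned to -0.08 without severe 5 and to -0.02 without severe 6. The next 2 probe sets followed the brightest one across cows (r = 0.946 and 0.877) and differed by 0.07 and 0.06. Another one, not far above the dim limit, so that its size may be compressed, had r = 0.239 with the brightest one. That probe set ran from 5.57 to 5.85 in mild and from 5.75 to 6.04 in severe cows and differed by 0.18 ± 0.08 (SE, unadjusted p = 0.0399, limma adjusted p = 0.370, exact permutation p = 0.0390). The remaining one was dim and differed by 0.02.

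IGF2R, which removes IGF2 from the cell surface, was 9.18, 8.51, 9.09, 9.11 and 9.59 in mild 1 to 5 and 9.17, 9.17, 8.94, 9.68, 9.25 and 9.30 in severe 1 to 6. Mild 2 was the lowest and severe 4 the highest cow, mild 5 was above the other 5 severe cows, and the groups overlapped. The difference was 0.16 ± 0.17 (SE), with an interval from -0.22 to 0.54, and the other bright probe set gave -0.05 ± 0.23 (SE), so the direction was not the same in both. On the brightest probe set the difference was 0.0118 without mild 2, 0.07 without severe 4 and 0.28 without mild 5. GRB10, the adaptor that restrains INSR and IGF1R, was dim in all 11 cows, from 5.06 to 5.45 in mild and from 5.25 to 5.41 in severe cows. Its difference of 0.07 ± 0.08 (SE) had an interval from -0.11 to 0.25.

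**Figure D2:**
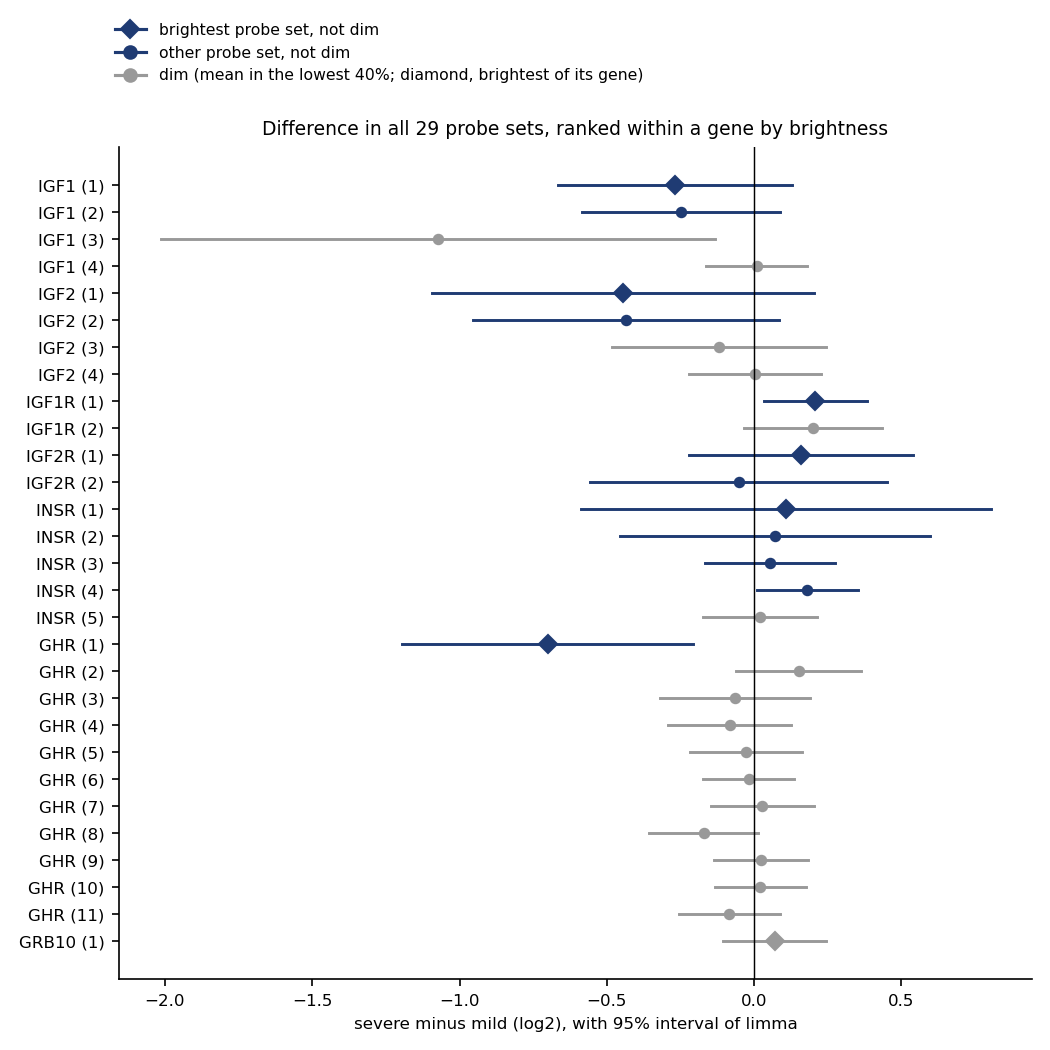
Severe minus mild difference (log2, horizontal axis) of all 29 probe sets with the 95% interval of limma, grouped by gene and ranked by brightness within a gene; grey marks the 17 dim probe sets. The brightest probe sets of GHR and IGF1R have intervals that leave out 0, at -0.70 and 0.21, while the 10 dim probe sets of GHR lie between -0.17 and 0.15.

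Related genes were set against each other within each cow, which removes any shift that an array shares between both. The signal of IGF1 minus that of IGF2 averaged -1.94 ± 0.57 (SD, n = 5) in mild and -1.77 ± 0.49 (SD, n = 6) in severe cows, a difference of 0.18 (exact two-sided permutation p = 0.576, adjusted p = 0.751 over 2 contrasts), with 4 of 6 severe cows above the mild mean. IGF1R minus INSR averaged -1.65 ± 0.26 in mild and -1.55 ± 0.64 in severe cows, a difference of 0.10 (exact p = 0.751, adjusted p = 0.751), with 3 of 6 above. At this number of cows neither test separated the differences of the 2 ligands or of the 2 kinase receptors from each other.

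Across the 11 cows the brightest probe sets of the 7 genes gave 21 pairs. GHR and IGF1 went together, with Pearson's r = 0.818 (permutation p = 0.00222, adjusted p = 0.0233 over the 21 pairs) and Spearman's rho = 0.755 (permutation p = 0.0102, adjusted p = 0.107). GHR and IGF1R went in opposite directions, with r = -0.829 (permutation p = 0.00182, adjusted p = 0.0233) and rho = -0.809 (permutation p = 0.00419, adjusted p = 0.0880). In both pairs Pearson's r passed the adjustment and Spearman's rho did not. Without mild 1 and mild 3, the 2 cows farthest from the median of GHR, r was 0.744 and -0.674. On deviations from the group means r was 0.806 and -0.678, and within the 6 severe cows it was 0.673 (exact permutation p = 0.143) and -0.372 (exact p = 0.469). Without mild 1, 3 and 4, the cows that stand apart from the rest, r over the other 8 cows was 0.495 (exact p = 0.216) and -0.382 (exact p = 0.344), so neither relation was shown without them. All genes of a pair share the array and its normalization.

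**Figure D3:**
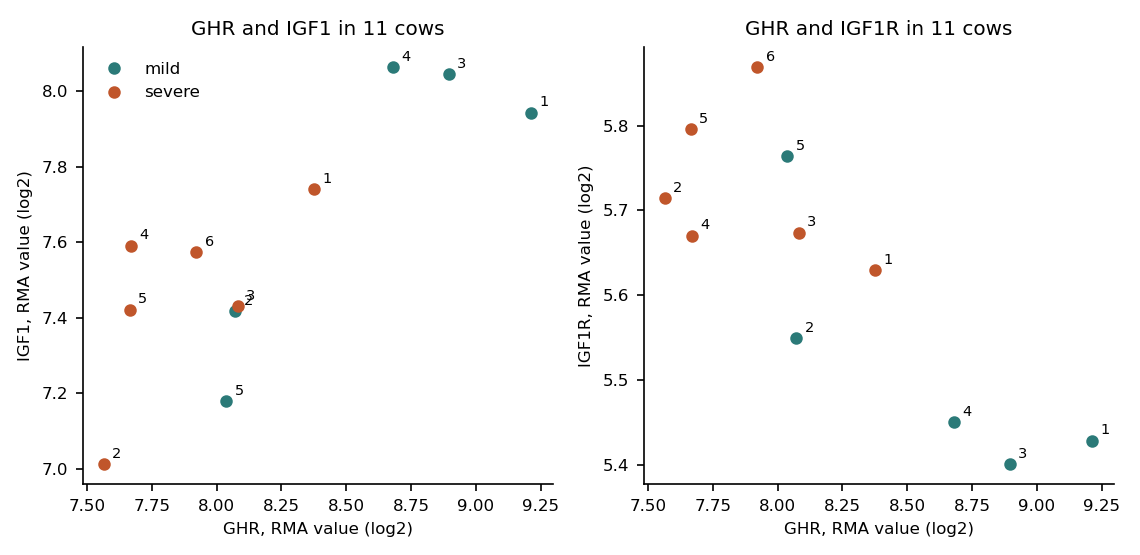
RMA signal (log2) of GHR, horizontal axis, against IGF1 (left) and IGF1R (right) on their brightest probe sets, 1 point per cow labelled with its number within the group. Mild 1, 3 and 4 lie apart at a GHR signal of 8.68 to 9.21, with the highest IGF1 (7.94 to 8.06) and the lowest IGF1R (5.40 to 5.45).

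The genes around these receptors were then counted, 1 probe set per gene, from lists of the pathway's parts. These lists were chosen with earlier results of these data known, and some genes stand in more than 1 list. Their counts are therefore a description and not a test. In no list did a gene pass the adjusted threshold in limma, and at an unadjusted p under 0.05 the background over all genes was 15.9%, with 7.46% lower and 8.45% higher in severe cows. The growth hormone receptor list had 8 measured genes, among them STAT and SOCS genes but no JAK gene. Of these 8, 1 had an unadjusted limma p under 0.05. This was PRLR, the prolactin receptor, a close relative of GHR, at 6.81 ± 0.63 (SD, n = 5) in mild and 5.91 ± 0.81 (SD, n = 6) in severe cows, a difference of -0.90 ± 0.39 (SE, limma adjusted p = 0.373). PTPN6, a phosphatase of blood cells that acts on JAK kinases, differed by 0.45 ± 0.24 and SOCS2, a feedback inhibitor that growth hormone induces, by 0.31 ± 0.22 (SE). The median of the list was 0.05.

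The PI3K, AKT and mTOR arm had 6 of 14 measured genes under an unadjusted p of 0.05 in limma, 4 lower and 2 higher. Of all genes 15.9% were under that p. The median difference of the list was 0.06. PIK3R3, a regulatory subunit of PI3K, was dim and differed by -0.34 ± 0.13 (SE), GSK3B, a kinase that AKT inhibits, by -0.25 ± 0.10, and FOXO4, a transcription factor that AKT keeps out of the nucleus, by 0.33 ± 0.13. PIK3R1, the main regulatory subunit, chosen for mention after its values were seen, was 9.77 ± 0.74 (SD, n = 5) in mild and 8.80 ± 0.80 (SD, n = 6) in severe cows, with 1 of 6 severe cows above the mild mean. Its difference was -0.97 ± 0.41 (SE), with a limma adjusted p of 0.368. In all, 8 genes of the list had higher and 6 lower means in severe cows. The Ras and MAP kinase arm had 0 of 10 genes under an unadjusted p of 0.05 in limma and a median of 0.05. Its genes with the smallest p were the kinase MAP2K1 at 0.20, the docking protein GAB1 at 0.22 and the GTPase HRAS at -0.15.

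Brakes on insulin and IGF signalling had 4 of 11 measured genes under an unadjusted p of 0.05 in limma, all 4 higher in severe cows. Over all genes that share was 15.9%, with 8.45% higher. The list median was 0.09. TRIB1, a pseudokinase, was 2.07-fold higher (limma adjusted p = 0.248). TRIB3, a relative that binds AKT, differed by 0.35 ± 0.12 (SE) at a dim signal, and INPP5D, a lipid phosphatase of blood cells that opposes PI3K, by 0.70 ± 0.25. Genes known as targets of FOXO factors, which insulin and IGF signalling represses, had 5 of 14 under that p, all 5 higher, and a median of 0.12. SOD2, a mitochondrial superoxide dismutase that inflammatory signals also induce, differed by 2.15 ± 0.38 (SE) and IGFBP1, a binding protein that insulin represses, by 1.20 ± 0.28 at a dim mean, and TRIB1 stands in this list too. INPP5D and PTPN6 are genes of blood cells. Beside the neutrophil markers, 8 of 8 measured macrophage markers had higher means in severe cows, with signals of 8.26 to 10.41 against 7.87 to 9.29 and 0 of them dim. Of the T and NK cell markers 11 of 12 were higher in severe cows, with signals of 6.12 to 7.17 against 5.56 to 6.35 and CD4 and GZMB dim. All 5 measured B and plasma cell markers were higher too, at 6.37 to 9.74 against 5.95 to 7.88, with CD79A, MS4A1 and POU2AF1 dim. At an unadjusted p under 0.05 in limma there were 4, 8 and 5 of these macrophage, T and NK, and B and plasma cell markers. Over all genes the share under that p was 15.9%, and 51.1% of all genes had lower means in severe cows. The part of these cells in the list values was not tested.

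Binding proteins of the IGFs and the proteins that cut them or block that cut had 5 of 10 measured genes under an unadjusted p of 0.05. Of these, 3 were higher and 2 lower, beside 15.9% of all genes under that p in limma. The median of the list was 0.20. STC1, a secreted inhibitor of the protease that cuts IGF binding proteins, was 6.52 ± 0.64 (SD, n = 5) in mild and 9.20 ± 1.34 (SD, n = 6) in severe cows, or 6.40-fold higher (limma adjusted p = 0.269). PAPPA, a protease of this list, was dim and differed by 0.01 ± 0.12 (SE). IGFBP1 averaged 4.82 and 6.02, and IGFBP6, a binder with preference for IGF2, was lower by -0.76 ± 0.28 (SE). The direction thus differed within the binding proteins, and 0 of these genes passed the adjusted test.

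**Figure D4:**
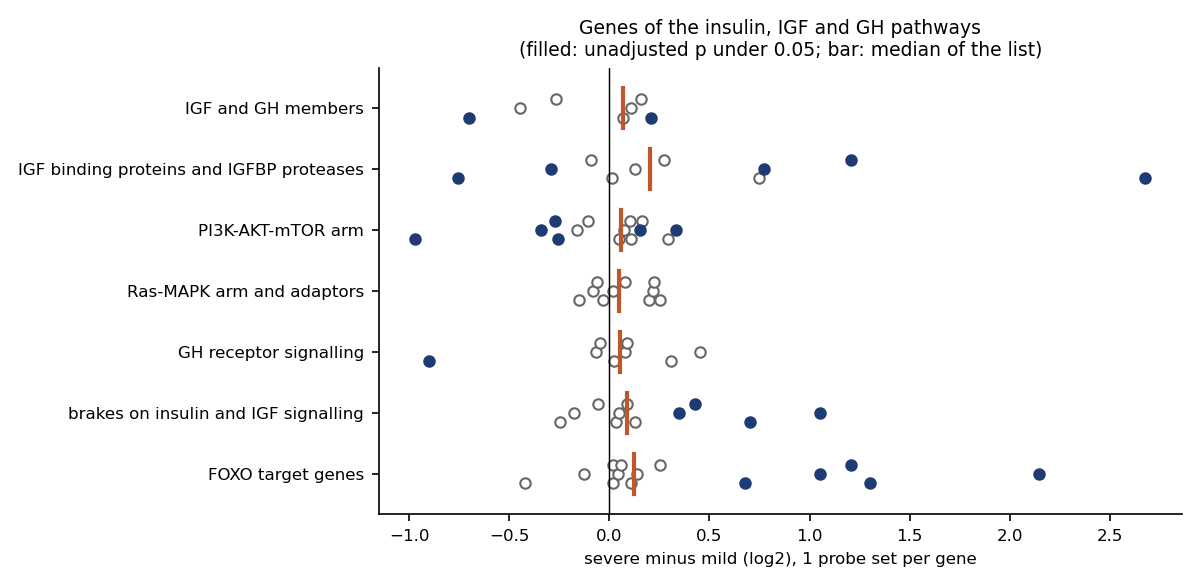
Severe minus mild difference (log2, horizontal axis) of the 7 measured genes examined here and of each measured gene in 6 pathway lists, 1 brightest probe set per gene. Filled points have an unadjusted limma p under 0.05 and the vertical bar is the list's median. The medians lie between 0.05 and 0.20, and the highest point is STC1 at 2.68.

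For each of the 7 genes, the genes most like it over the 11 cows were sought by Pearson's r among 7129 other genes that were not dim, as a description without a test. GHR was most like CPE, a carboxypeptidase of hormone processing (r = 0.934), and TRMT1 (r = 0.924). On deviations from the group means r was 0.877 and 0.858. CPE differed by -0.75 ± 0.24 (SE, limma adjusted p = 0.307). The search used both groups, so a gene picked for its likeness to GHR tends to share the group difference of GHR. IGF1 was most like TAF12 (r = 0.932) and the transcription factor ATF2 (r = 0.918), and IGF2 like TRAF7 (r = 0.952) and GRWD1 (r = 0.900). IGF1R was most like GPATCH3 (r = 0.922) and TBC1D5 (r = 0.918). IGF2R had the closest match of all 7, CTSK, the lysosomal protease cathepsin K (r = 0.970), followed by PLXDC2 (r = 0.947). INSR was most like PECAM1, an adhesion molecule of endothelium (r = 0.847), and GPX4 (r = 0.841), and the dim GRB10 like DNAJA4 (r = 0.897) and ADAM9 (r = 0.859). With 7129 genes compared over 11 cows, these matches rank likeness only.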

How the data were processed

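Total RNA from 11 endometrial samples was extracted with Trizol, labelled with biotin and measured on 1 array per cow, per the labels. The authors deposited log2 signals from RMA, per the submitters' processing notes. RMA subtracts background, gives arrays nearly the same distribution and summarises probes into probe sets, so it hides any shift that all transcripts share. The log2 scale was read from the values (2.63 to 14.6). Its software and version: not given in the sources used here. Arrays have no read depth, and their number limits precision.

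Of 24128 probe sets 112 controls were left out. In the annotation of 2016, 13292 had 1 symbol, 86 several and 10638 were not listed. The RefSeq table of ARS-UCD2.0 matched 13263 and renamed 0. The groups were compared with limma 3.58.1 under R 4.3.3 (lmFit, eBayes, two-sided, no covariate, Benjamini-Hochberg over all probe sets), with 95% intervals from the same fit. Single values were also tested by exact permutation, and correlations with 100000 resamples, in Python 3.11.15. A marker score is the mean over the markers of log2 values minus each gene's mean. The fit was tested on simulated data. Genes named are all probe sets of the members, the 3 genes with the smallest p in each pathway list and the 2 most alike genes per member. PIK3R1, PAPPA, PDGFRA, HOXA10, CLDN4 and CLDN10 were added after their values were seen. Members, lists and tests were chosen with earlier results of these data known. The planned contrast of IRS1 and IRS2 could not be computed. The labels do not tie cows to blocks, and nothing used here gives a batch or scan date. Alternatives were a filter on dim probe sets, other normalizations, eBayes settings, array weights, marker scores as covariates, the mean over a gene's probe sets and each cow left out. Fits without mild 2 and severe 5 (the arrays least like the median array) and correlations without mild 1, 3 and 4 were added after seeing the data.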

Additional observations from a re-analysis of the deposited data

Results flagged for a closer look

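In 96 groups of cows, 29 probe sets and the named pathway genes and contrasts in each group, 5 had a cow whose gap to the nearest other cow was wider than Dixon's 95% critical value, where chance gives about 1 in 20. All 5 were in mild cows and on dim probe sets, and 4 were mild 1. That cow was at 5.63 on the third IGF2 probe set, where the other mild cows ran from 4.57 to 4.86. On 3 dim GHR probe sets it was at 4.70, 4.24 and 3.91, where the others ran from 4.02 to 4.14, from 3.74 to 3.87 and from 3.59 to 3.64. Mild 5 was at 3.76 on another dim GHR probe set, with the others no higher than 3.603. Mild 1 also had the highest signal of the brightest GHR and the brightest IGF2 probe set, though its gap there did not pass the critical value.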

How the results depend on the processing

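All differences of GHR, IGF1, IGF2 and IGF1R kept their direction in every alternative, and none of the 7 genes passed the adjusted threshold in any, with adjusted p for GHR from 0.155 to 0.917. Signs turned for INSR (-0.51 with the neutrophil score, -0.12 without mild 2 and severe 5, and a range of -0.0763 to 0.32 with 1 cow left out), IGF2R (-0.30) and GRB10 (-0.0294) with the neutrophil score, and for IGF1 minus IGF2 with the mean over all probe sets (-0.15). IGF1R minus INSR ran from -0.0945 to 0.27 with 1 cow left out, and the negative value came without severe 1. That score had no overlap between mild and severe cows, so a fit with it removes part of the contrast itself. The count of the 29 probe sets at an unadjusted p under 0.05 was 4, 2 without dim probe sets (of 12 left), 0 with the neutrophil score and 1 to 6 with 1 cow left out, the lowest without mild 3 or mild 4. Over all probe sets 0 passed, 0 at a threshold of 0.1, and 0 to 16 with 1 cow left out, the 16 without severe 1 and 2 without severe 3. Without mild 1, 3 and 4, chosen after seeing the data, r was 0.495 for GHR and IGF1 and -0.382 for GHR and IGF1R, with adjusted p of 0.601 and 0.632. No paired analysis was possible because the labels give no replicate numbers and do not say which cows shared a block. Where no cause is given above, the cause was not tested. A signal near the floor limits what GRB10 and the dim probe sets of GHR can show.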
